A study of Homo sapiens with 13 samples.

Results

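LINC RNAs are long noncoding RNAs whose genes carry the systematic symbol LINC followed by a number because no function had named them, and they lie mostly between protein-coding genes. This account covers the 116 genes with such a symbol whose mean total RNA reached at least 1 CPM (counts scaled to library size) over the 12 chase libraries described next. They were taken from 59204 human gene IDs, of which 2177 carry a LINC symbol at any level, and 13395 genes of all kinds reached 1 CPM. The members were thus chosen by their measured level of total RNA, so the members' abundance is a description and carries no test. The last members inside the threshold were LINC01588 at 1.05 CPM, LINC00562 at 1.05 CPM and LINC01596 at 1.01 CPM. The first genes outside it were LINC00656 at 0.999 CPM, LINC01560 at 0.952 CPM and LINC01134 at 0.891 CPM.

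The cells were K562, an established human line from a chronic myeloid leukaemia with erythroid features. They received 30 µM 4-thiouridine (4sU), a uridine analogue that cells use in place of uridine in transcription, for 12 h with fresh medium every 3 h. The label was then washed out and chased with 3 mM uridine, and RNA was taken 0, 1, 2, 4, 8 and 12 h later in 2 replicates each. A single further library came from cells without 4sU, and the labels do not give the time of its harvest. Nor do they say whether these cells had the medium exchanges or the wash. All 13 libraries also hold 5% RNA of Drosophila S2 cells, a spike-in, and were read from the 3' ends of polyadenylated RNA after alkylation, which makes 4sU appear as C (SLAM-seq). Whether replicates came from separate cultures is not stated, so p-values reflect the spread between these libraries alone, which can be technical.

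Long noncoding RNAs are made by RNA polymerase II and are capped, and many are spliced and polyadenylated like mRNA. Many are retained in the nucleus, where the RNA exosome and its adaptor complexes can degrade them, while others reach the cytoplasm and decay there. Their turnover therefore spans transcripts removed soon after synthesis and transcripts as long-lived as stable mRNA, and for most LINC RNAs no molecular role is known.

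The libraries held between 9004529 and 17425584 counts, of which the 116 LINC RNAs took between 0.137 and 0.158%. All 10 K562 markers, among them HBG1, HBG2, GATA1 and TFRC, reached 1 CPM, and their summed level lay between 4351 and 13026 CPM. Of the markers of other cells, 3 of 7 lymphocyte genes reached 1 CPM (sum 22.3 to 72.1 CPM), as did 2 of 6 monocyte and granulocyte genes (5.19 to 16.2 CPM) and 4 of 6 fibroblast and epithelial genes (575 to 952 CPM, from KRT8, KRT18, EPCAM and VIM). CD3E, CD2, MS4A1, CD79A, MPO, CSF1R, FCGR3B and COL3A1 were at or near 0. Among 597 spike-in genes the first principal component held 68.35% of their variance. On one side of it lay all libraries up to 2 h together with replicate 1 of 4 h. Replicate 2 of 4 h, the later libraries and the one without 4sU lay on the other. This split of the spike-in follows chase time closely, so results are also given with the side as a factor. For total RNA, 4 h was the only group with libraries on both sides, so there the side was estimated from that pair alone.

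Labelled reads are read through T positions at the 3' end, so 3 ends are shown first, from LINC RNAs with an AATAAA near the annotated end and different labelling. LINC01610 was abundant and lost label slowly, LINC01128 was abundant and lost it fast, and LINC01667 was labelled most fully among the 8 most abundant. Each line is the last 120 bases of the longest GENCODE 29 transcript, 5' to 3' as DNA, with the polyadenylation signal AATAAA in capitals.
LINC01610: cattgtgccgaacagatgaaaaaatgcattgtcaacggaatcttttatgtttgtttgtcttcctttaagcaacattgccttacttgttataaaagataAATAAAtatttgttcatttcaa
LINC01128: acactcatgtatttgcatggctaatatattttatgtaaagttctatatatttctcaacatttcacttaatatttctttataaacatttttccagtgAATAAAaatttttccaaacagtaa
LINC01667: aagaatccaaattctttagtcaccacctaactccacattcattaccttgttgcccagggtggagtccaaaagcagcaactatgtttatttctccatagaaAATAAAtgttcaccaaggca
The signal lies 16 bases before the annotated end of LINC01610 (chromosome 6, gene span 70394887 to 70399417, plus strand, GRCh38), and 18 bases before that of LINC01128 (chromosome 1, 825138 to 859446, plus strand). It lies 14 bases before the end of LINC01667 (chromosome 21, 9781918 to 9814009, minus strand). The 120 bases hold 46 T in LINC01610, 51 in LINC01128 and 33 in LINC01667. Thus LINC01667, with the fewest T among the 3, was labelled in 72.8% of its counts at 0 h, and LINC01610 in 16.3%. Which annotated end the reads come from is not given in the sources used here.

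The LINC RNAs were mostly scarce. Their median level was 3.95 CPM, against 16.3 CPM for all genes at 1 CPM or more. Of the 116, 48 reached 5 CPM and 16 reached 20 CPM, and the 8 most abundant held 49.3% of all counts of the group. In GENCODE 29, 85 were of type lincRNA, 14 processed transcripts, 7 antisense and 10 of other types, 31 had another name, and 15 had no transcript with more than 1 exon. Exons of 20 overlapped another gene on the same strand and those of 31 a gene on the other strand. For 8 members at least 100 bases matched another gene at 97% identity or more, namely LINC01001, LINC02193, LINC01641, LINC00863, LINC00623, LINC02802, LINC01409 and LINC00240, and their counts are uncertain. LINC00685 and LINC00106 lie in the pseudoautosomal region, where X and Y hold the same sequence.

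At the end of the pulse the LINC RNAs as a pool were 48.9% ± 1.15 labelled (SD, n = 2). The pooled share fell to 46.4% after 1 h, 41.3% after 2 h, 28.9% after 4 h, 12.9% after 8 h and 5.70% ± 0.325 after 12 h (SD, n = 2). Over all human counts the share fell from 36.0% to 10.7%, so the pool of LINC RNAs began above the whole and ended below it. The 8 most abundant members alone began at 44.4% and the other 108 at 53.5%, and both stood near the same value at 12 h (5.74 and 5.66%). Without 4sU, 0 of 25739 counts of the LINC RNAs were labelled, which allows a share of up to 0.0117% by counting error alone. Gene by gene the picture was closer to other genes. The median share of all 116 members fell from 59.0 to 4.06%. That of all genes with at least 30 labelled counts over the chase fell from 57.2 to 5.51%. Over the 109 members with as many labelled counts, the median of the mean shares at 0 h was 61.5%, against 57.5% for all such genes.

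How much of each RNA was labelled at 0 h differed widely between members. Among the 74 with at least 20 counts in each 0 h library, the share ran from 9.64 to 83.9% with a median of 60.4%, 11 were over 75% and 5 under 20%. LINC00863, which matches NUTM2 family genes, was at 85.2 and 82.6% in the 0 h libraries. LINC02434 was at 86.2 and 81.5%, and LINC02762 at 81.0 and 81.8%. In these 3 most counts were of RNA labelled during the pulse. At the other end stood LINC01033 with 9.15 and 10.1%, LINC01088 with 6.25 and 14.0%, and LINC01641 with 6.90 and 17.6%. LINC01033 had at least 286 counts in each 0 h library, while LINC01641 had 29 and 34 and is far less precise.

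Since label is read at T positions, the share is set beside the T content of the 3' end. In the last 250 bases the median T content was 30.8% in the 74 members and 30.4% in the 11105 genes measured in the same way. Across the 11105 genes, the median share was 32.9% where T made under 20% of those bases and 71.4% where it made 40% or more, with a Spearman correlation of 0.53. Across the 74 LINC RNAs the correlation was 0.29. Their median share was 67.5% in the 5 with under 20% T and 35.4% in the 15 with 20 to 25% T. It was 56.9% in the 14 with 25 to 30% T and 57.2% in the 19 with 30 to 35% T. Above that it was 72.7% in the 13 with 35 to 40% T and 63.6% in the 8 with 40% T or more. From 25 to 40% T the medians of all genes in the same steps were 53.1, 62.2 and 67.9%. Both correlations are descriptions over genes read in the same 2 libraries and genes are not independent replicates. LINC02573 stood out with 43.6% T and a share of 19.3%, and LINC02762 with 13.6% T and a share of 81.4%. Both rest on few counts at 0 h, with 7 of 32 and 4 of 24 labelled for LINC02573. For LINC02762 these were 17 of 21 and 18 of 22. The share of LINC02573 was higher later, at 44.4 and 30.3% after 2 h and 34.0 and 38.9% after 4 h. AATAAA or ATTAAA lay in the last 50 bases of 68.1% of members and of 67.4% of all genes with an annotated end, searched on the transcript strand.

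**Figure D1:**
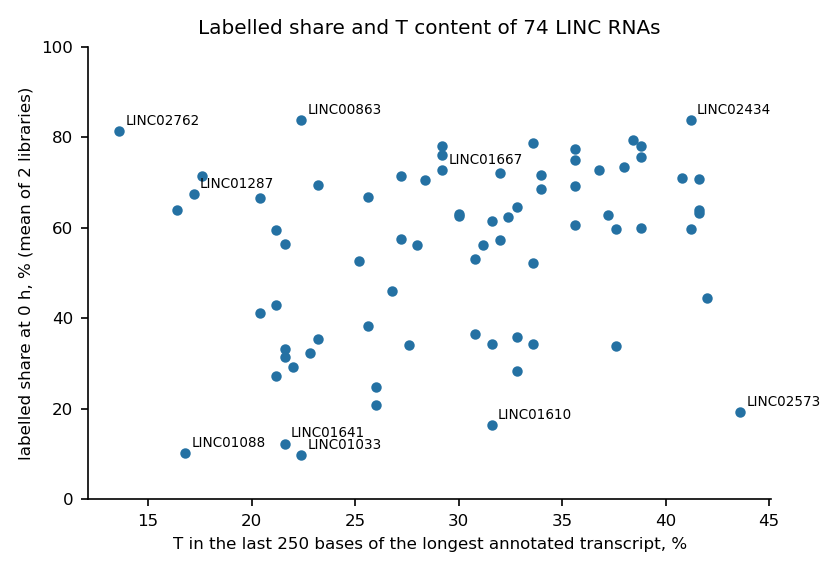
Labelled share at 0 h (percent, mean of 2 libraries) against the T content of the last 250 bases of the longest annotated transcript (percent), 1 point for each of 74 LINC RNAs with at least 20 counts in each 0 h library. Low and high shares occur at both ends of the T content, with LINC02573 at 19.3% labelled and 43.6% T and LINC02762 at 81.4% labelled and 13.6% T. These points rest on few counts at 0 h, 32 and 24 for LINC02573 and 21 and 22 for LINC02762.

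The loss of label was tested for 109 members, which had at least 30 labelled counts over the chase. The slope of labelled counts on time was compared with the median slope of all genes, -0.25 on the log2 scale per h, with edgeR's quasi-likelihood test and Benjamini-Hochberg adjustment over 13067 genes. Of the 109 LINC RNAs, 24 lost label faster than the median gene (22.0%), where 30.5% of all genes tested did. A further 14 lost it more slowly (12.8%), where 32.6% of all genes did, and 71 passed in neither direction. The median slope of the members was -0.27 and their median apparent half-life 3.81 h, against 4.11 h for all genes tested. Half-lives are called apparent because labelled counts were set against total library size, with no correction for cell growth. Decay and dilution by growth cannot be told apart in them. At 5 CPM or more 16 of 47 members were faster (34.0%, background 33.4%) and 8 slower (17.0%, background 38.2%). Under 5 CPM 8 of 62 were faster (12.9%, background 22%) and 6 slower (9.68%, background 16.5%). Calls were thus fewer at low level among members and among all genes. The share of slower members lay below the background at both levels, and the reason was not tested.

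The call depends on what the labelled counts are measured against. When labelled counts were set against the total of the same gene, so that the labelled share is followed, 26 members were faster (background 33.9%) and 27 slower (background 36.5%). There 17 of the 24 remained faster and 11 of the 14 remained slower. With the side as a factor 11 were faster (background 16.4%) and 5 slower (background 20.9%), of which 11 and 4 were among those called without it.

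By fitted half-life, 37 of the 109 lay under 3 h, 8 of these under 2 h, 57 between 3 and 6 h, and 15 at 6 h or more, and for 7 the data gave a lower limit alone. Under 2 h lay 7.34% of the members and 6.64% of all genes, and over 12 h 2.75% of the members and 8.65% of all genes. The half-life showed little relation to level, with a Spearman correlation of 0.088 over the 109 members. Other noncoding classes named by symbol at 1 CPM or more had medians of 4.33 h for 21 snoRNA host genes (SNHG), 3.29 h for 19 microRNA host genes, 3.42 h for 212 antisense transcripts (-AS) and 2.89 h for 98 divergent transcripts (-DT), and protein-coding genes 4.05 h. None of these differences between classes was tested.

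**Figure D2:**
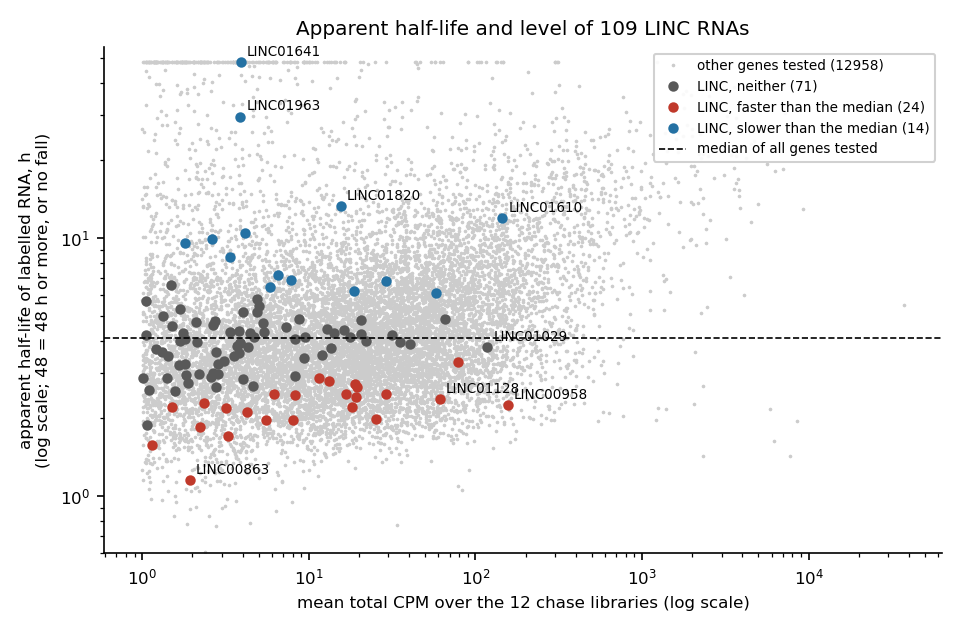
Apparent half-life of labelled RNA (h, log scale, values of 48 h or more drawn at 48) against mean total CPM over the 12 chase libraries (log scale) for 109 LINC RNAs and the other genes tested. LINC RNAs faster than the median (24, red) and slower (14, blue) occur at low and at high level, and LINC01610 at 145 CPM lies far above LINC00958 at 156 CPM.

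The most abundant member, LINC00958, is an RNA known for its high level in bladder and other carcinomas. It was labelled in 35.5 and 35.3% of its counts before the chase, 31.4 and 32.4% after 1 h, 28.0 and 26.8% after 2 h, 14.9 and 15.4% after 4 h, 3.59 and 5.40% after 8 h and 1.13 and 1.89% after 12 h. The libraries of consecutive times do not overlap at any step. Its slope lay 0.19 below the median (SE 0.017, adjusted p = 1.7e-11) and its apparent half-life was 2.26 h (95% interval 2.06 to 2.50). LINC01128, whose gene lies near the end of the short arm of chromosome 1, behaved in a similar way from a higher start. Its share was 62.8 and 57.3% at the start, 46.6 and 45.2% after 2 h, 21.4 and 22.1% after 4 h and 2.46 and 2.05% after 12 h, with a half-life of 2.37 h (2.02 to 2.88, adjusted p = 2.6e-09). For both genes the call held with the own total and with the side as a factor.

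LINC01610 was almost as abundant as LINC00958 and lost its label slowly. The share was 14.3 and 18.3% at the start, 21.6 and 17.7% after 2 h, 19.5 and 20.0% after 4 h, 13.3 and 16.9% after 8 h and 10.2 and 9.87% after 12 h. Both libraries of 4 h lie above those of 0 h and of 8 h, and both libraries of 12 h lie below all the other values given. Its slope lay 0.16 above the median (adjusted p = 8.1e-12) with a half-life of 12.0 h (8.39 to 21.0), and the call held with the own total and the side as a factor. LINC00470, a transcript studied in glioblastoma, also lost label slowly, from 34.5 and 34.0% at 0 h to 8.84 and 8.84% at 12 h. Its half-life was 6.15 h (5.24 to 7.44, adjusted p = 7.5e-06), and the call was lost with the side as a factor, where the slope lay 0.056 above the median and not 0.087 (adjusted p = 0.12).

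The other 4 of the 8 most abundant lay closer to the median. LINC01029 fell from 60.7 and 65.0% labelled to 3.41 and 3.56% with a half-life of 3.79 h (3.48 to 4.15), and did not pass the test (adjusted p = 0.16), though it was faster than the median against its own total (adjusted p = 2.3e-06). LINC01667 fell from 75.1 and 70.5% to 8.87 and 8.74% (3.90 h, 3.18 to 5.05, adjusted p = 0.12). Its total RNA fell from 0 to 12 h (log2 -0.43, adjusted p = 0.0015), and its slope against its own total lay 0.020 above the median (adjusted p = 0.23). LINC01001 fell from 57.1 and 55.9% to 5.56 and 3.78% (4.87 h, 4.00 to 6.21, adjusted p = 0.14), and it shares sequence with FAM157A. For LINC01287 the direction turned with the reference. Its labelled counts fell faster than the median (3.32 h, 2.91 to 3.85, adjusted p = 1.0e-04), while its labelled share was still 15.0 and 18.1% at 12 h and its slope against its own total was 0.11 above the median (adjusted p = 3.0e-07).

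Of the 6 shortest half-lives, 5 passed the test. LINC01355 was the best measured of them. Its share was 84.9 and 74.1% at the start, 51.3 and 56.9% after 1 h, 33.6 and 28.9% after 2 h, 9.35 and 14.7% after 4 h and 0 and 1.25% after 12 h, so each of the first 4 times lies apart from the next. The half-life was 1.96 h (1.504 to 2.83, adjusted p = 1.4e-05), and the call held with the own total and with the side as a factor. LINC00863 had the shortest value, 1.16 h (0.764 to 2.37, adjusted p = 1.4e-04), with 23 and 19 labelled counts at 0 h and 0 in both libraries of 12 h. The other 3 were LINC01391 at 1.57 h (0.847 to 10.9, adjusted p = 0.030), LINC00618 at 1.71 h (1.17 to 3.15, adjusted p = 1.9e-04) and LINC00339, a neighbour of the GTPase gene CDC42, at 1.85 h (1.28 to 3.33, adjusted p = 0.0011). For these 3 the call was lost with the own total, with adjusted p of 0.19, 0.22 and 0.17, and with the side as a factor, with adjusted p of 0.32, 0.17 and 0.26. Their differences from the median slope were -0.27, -0.25 and -0.20 with the side, and -0.29, -0.37 and -0.29 without it. For LINC01391, with 13 and 16 labelled counts at 0 h, it was also lost when replicate 1 or 2 of 0 h, replicate 1 of 8 h or replicate 2 of 12 h was left out, with a difference of -0.19 without replicate 2 of 0 h and -0.45 without replicate 2 of 8 h. LINC00618 overlaps exons of VRK1 on the same strand. LINC01004 had a fitted half-life of 1.89 h (1.08 to 7.39) and did not pass (adjusted p = 0.080).

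At the slow end LINC01820 was the best measured after LINC01610. Its share was 25.4 and 24% at the start, 20.3 and 26.4% after 4 h, 13.8 and 14.1% after 8 h and 5.05 and 6.21% after 12 h, and its half-life was 13.3 h (8.03 to 39.1, adjusted p = 1.1e-06). The libraries of 0 and 4 h overlap and those of 8 and 12 h lie below them in turn. The call was lost with the side as a factor, where the slope lay 0.091 above the median and not 0.17 (adjusted p = 0.13). LINC01191 had a half-life of 9.94 h (5.66 to 40.9, adjusted p = 6.5e-04) from 30 and 29 counts at 0 h. Its slope lay 0.15 above the median, and without replicate 2 of 12 h 0.080 (adjusted p = 0.11). For LINC01963 the data gave a lower limit of 9.59 h (adjusted p = 5.9e-06). For LINC02573 the lower limit was 4.26 h (adjusted p = 0.023), and its slope lay 0.147 above the median. The difference was 0.153 with the side (adjusted p = 0.23) and 0.057 with the own total (adjusted p = 0.31), and the call was lost with both and without replicate 2 of 12 h. For LINC01641 no fall was fitted, and the lower limit was 8.52 h (adjusted p = 1.1e-04). Its labelled counts per library ranged from 1 to 16 in no order of time, and it matches another annotated gene.

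Properties of the called sets are given as medians with no test. The labelled counts at 0 h enter the slope as well, so the share there is not independent of the calls. The 14 slower members had a median share of 33.8% at 0 h, 25.6% T in the last 250 bases and a longest transcript of 1235 bases. For the 24 faster members these were 63.0%, 30.8% and 2436 bases, and for the 71 others 62.4%, 29.6% and 2084 bases. AATAAA or ATTAAA was found in the last 50 bases of 10 of the 14, 16 of the 24 and 79 of all 116 members. The slower set nevertheless holds members at both ends of the share, with LINC01033 at 9.64% (6.79 h, 4.99 to 10.7) and LINC02864 at 72.1% (6.25 h, 5.11 to 8.03), the latter chosen after its values were seen.

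**Figure D3:**
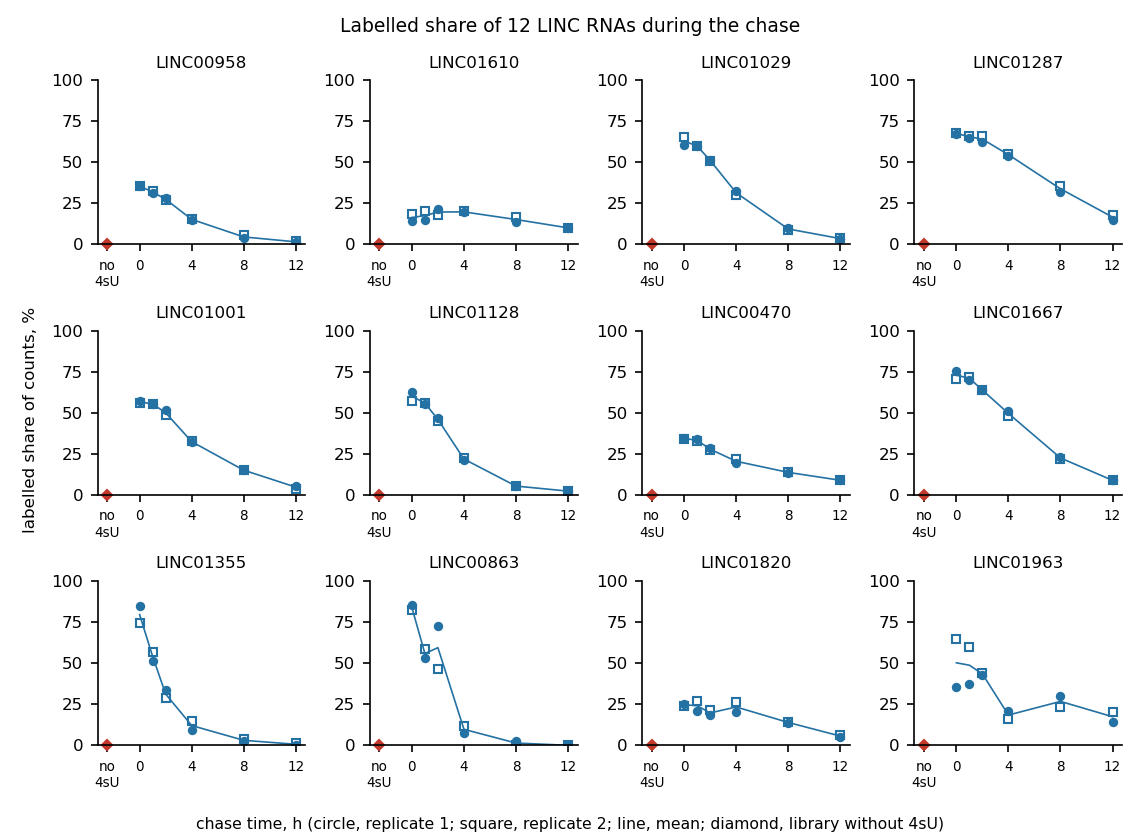
Labelled share of counts (percent) against chase time (h) for 12 LINC RNAs, with each library as a symbol, the mean of 2 replicates as a line and the library without 4sU as a red diamond at 0. LINC01355 and LINC00863 were near 0 by 8 h, whereas LINC01610 and LINC01820 stayed near their 0 h level up to 4 h.

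Over the chase total RNA of the LINC group changed in both directions. From 0 to 12 h 29 of the 116 rose (where 27% of all 16255 genes tested rose) and 26 fell (where 29.1% of all genes fell), by edgeR's quasi-likelihood test at an adjusted p under 0.05. The median change of the members was 0.058 on the log2 scale and that of all genes -0.057. With spike-in totals as library sizes 49 rose (background 40.4%) and 16 fell (background 13.7%) while the median of all genes moved to 0.36. With the side as a factor 12 rose (background 17.9%) and 21 fell (background 19.2%). The side rests here on the pair of 4 h libraries alone, so this fit is a weak check. Without replicate 1 of 12 h 19 rose (background 24.3%). Changes in cell number and in RNA per cell cannot be told apart in such bulk samples.

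LINC01140 fell the most. It stood at 3.58 and 8.77 CPM at the start, 5.23 and 5.37 after 4 h, 2.18 and 3.07 after 8 h and 0.869 and 0.624 after 12 h, a log2 change of -3.17 (SE 0.40, adjusted p = 1.5e-07) and of -2.39 without replicate 2 of 0 h. LINC00618 fell from 4.57 and 4.66 CPM to 1.04 and 0.936 (log2 -2.36, SE 0.38, adjusted p = 5.6e-06). LINC02560 fell from 2.98 and 4.22 to 0.956 and 0.858 CPM (log2 -2.12, SE 0.39, adjusted p = 3.5e-05), and LINC02616 from 3.78 and 6.44 to 2.09 and 0.702 CPM (log2 -2.03, SE 0.39, adjusted p = 6.6e-05). With the side as a factor the change of LINC02560 was -2.76. For LINC02616 it was -2.98 without replicate 1 of 12 h and -1.43 without replicate 2. In all 4 the libraries of 0 and 12 h do not overlap. Among the abundant members LINC01287 fell from 106 and 110 CPM to 33.6 and 39.6 CPM (log2 -1.71, SE 0.085, adjusted p = 2.7e-15) and LINC00958 from 197 and 199 to 131 and 128 CPM (log2 -0.76, SE 0.073, adjusted p = 8.6e-10).

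The rises were led by LINC01602, from 0.397 and 0.444 CPM at 0 h to 2.173 and 2.26 at 12 h (log2 2.23, SE 0.54, adjusted p = 8.8e-04), with 4 counts in each 0 h library. LINC00106 rose from 1.09 and 1.33 to 6.95 and 5.23 CPM (a fitted 4.50-fold, log2 SE 0.34, adjusted p = 4.5e-06). LINC00689 rose from 5.07 and 3.89 to 16.9 and 16.9 CPM (log2 1.75, SE 0.20, adjusted p = 3.0e-08), and LINC01215 from 1.59 and 0.777 to 4.78 and 3.59 CPM (log2 1.63, SE 0.38, adjusted p = 6.7e-04), with 2.32 for the latter without replicate 1 of 0 h. The groups do not overlap in any of these 4. With the side as a factor, estimated from the 4 h pair alone, the calls of LINC00106 (log2 1.58) and LINC00689 held. Those of LINC01602 (adjusted p = 0.16) and LINC01215 (adjusted p = 0.20) were lost. The abundant LINC01029 rose from 84.3 and 93.1 to 196 and 193 CPM (log2 0.98, SE 0.080, adjusted p = 4.7e-11) and LINC01001 from 46.1 and 48.6 to 93.8 and 92.8 CPM (log2 0.83, SE 0.085, adjusted p = 3.4e-09).

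In the first hour after the wash little moved. At 1 h against 0 h none of the 116 rose (background 0.32%) and LINC00685 fell (background 0.0369%), with 12 members at an unadjusted p under 0.05, and DESeq2 also called 0 and 1. LINC00685, transcribed beside PPP2R3B in the pseudoautosomal region, was at 23.4 and 23.7 CPM before the chase, 12.6 and 16.1 after 1 h, 19.8 and 20.0 after 2 h and 42.3 and 33.9 after 12 h. The 1 h libraries lie below all others (log2 -0.69, SE 0.14, adjusted p = 0.012). The call was lost without either 0 h library or without replicate 1 of 1 h. Its label fell faster than the median (1.99 h, 1.47 to 3.08, adjusted p = 1.3e-04).

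**Figure D4:**
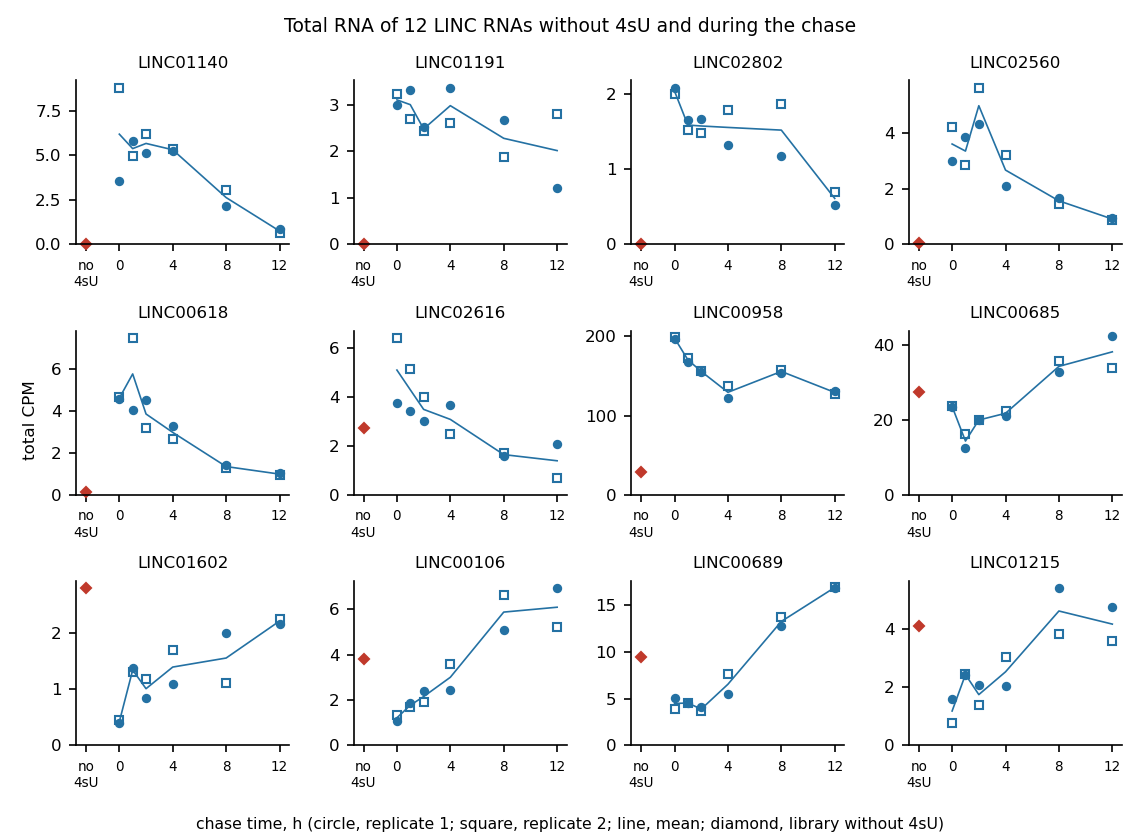
Total CPM of 12 LINC RNAs in the library without 4sU (red diamond) and against chase time (h), with each library as a symbol and the mean of 2 replicates as a line. LINC01140, LINC01191 and LINC02802 were at 0 without 4sU and present in both 0 h libraries, and LINC01602, LINC00106, LINC00689 and LINC01215 were lower at 0 h than without 4sU and at 12 h.

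The library without 4sU gave a further comparison, of cells at the end of the pulse with cells that had no label. It uses the same 0 h libraries as the contrasts above, so the values are not independent of them, and the single library was assumed to vary like the others. The library without 4sU also lies on the other spike-in side than the 0 h libraries. Its medium exchanges and wash are not given, so handling and label cannot be told apart in this comparison. At 0 h 36 members were higher than without 4sU (31.0%, background 33.5%) and 28 lower (24.1%, background 31.8%). With spike-in totals as library sizes these were 49 (background 46.4%) and 18 (background 18.4%), with the median of all genes moving from 0.063 to 0.54. With the side as a factor, again estimated from the pair of 4 h libraries alone, they were 25 (background 26%) and 16 (background 24.2%). The members were admitted by their level in the chase libraries and not by that without 4sU, so a gene low without 4sU could enter while one low throughout the chase could not.

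For 3 members no count was seen without 4sU, and folds against that library are lower bounds, from the lower 0 h library over 3 counts. LINC01140 was at 3.58 and 8.77 CPM at 0 h, at least 20.8-fold higher. LINC01191 was at 2.98 and 3.22 CPM, at least 17.3-fold higher, and LINC02802 at 2.09 and 2.00 CPM, at least 11.6-fold higher. LINC02560 had 1 count without 4sU and 68 in both 0 h libraries, a ratio of 62.1 (exact 95% counting interval 10.8 to 2490.03). LINC00618 had 2 and 88, a ratio of 40.2 (10.8 to 337). By 12 h LINC01140, LINC02802, LINC02560 and LINC00618 were all under 1.1 CPM, and LINC01191 was at 1.22 and 2.81 CPM.

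Larger counts carried the same contrast for LINC00958, with 28.3 CPM without 4sU and 197 and 199 CPM at 0 h (log2 2.75, SE 0.11, adjusted p = 5.1e-18). At 12 h it was still at 131 and 128 CPM. LINC00467, chosen after its values were seen, was at 7.75 CPM without 4sU, 41.0 and 45.9 at 0 h and 19.5 and 15.3 at 12 h (log2 2.43 for 0 h over no 4sU, SE 0.18, adjusted p = 3.6e-12). In both the 12 h libraries stood between the level without 4sU and that of 0 h.

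Members lower at 0 h than without 4sU were led by LINC01602, at 2.81 CPM without 4sU (log2 -2.77, SE 0.56, adjusted p = 1.2e-04, and -2.11 with the side as a factor). LINC00668 was at 11.2 CPM without 4sU and 2.38 and 2.78 at 0 h (log2 -2.18, SE 0.30, adjusted p = 5.5e-07), and its 12 h libraries were at 3.13 and 2.50. LINC00896 was at 4.30 against 0.994 and 1.22 CPM (log2 -2.01, SE 0.46, adjusted p = 4.0e-04), a call lost with the side as a factor, and LINC03057 at 5.16 against 1.49 and 1.33 CPM (log2 -1.91, SE 0.38, adjusted p = 7.5e-05). Of the abundant members LINC01001 was at 123 CPM without 4sU against 46.1 and 48.6 at 0 h (log2 -1.43, SE 0.096, adjusted p = 5.4e-13), and LINC01029 at 173 against 84.3 and 93.1 CPM (log2 -1.02, SE 0.093, adjusted p = 2.7e-10). LINC01610, at 157 CPM without 4sU and 159 and 157 CPM at 0 h, did not pass in either direction.

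The promoters of the 4 members with the largest rises at 0 h over the library without 4sU are shown because these genes were near or at 0 without the label. RefSeq's table (GRCh38.p14) held a promoter, 250 bases before to 50 after the start, for 69 of the 116 members. Motifs were searched on both strands as CCAAT (bound by NF-Y), the AP-1 site TGACTCA, the GC box GGGCGG, the TATA box TATAAA, and 2 forms of the GATA site. These forms were AGATAA or, with another first base, TGATAA. None of the motifs contains another, and matches are in capitals.
LINC01140: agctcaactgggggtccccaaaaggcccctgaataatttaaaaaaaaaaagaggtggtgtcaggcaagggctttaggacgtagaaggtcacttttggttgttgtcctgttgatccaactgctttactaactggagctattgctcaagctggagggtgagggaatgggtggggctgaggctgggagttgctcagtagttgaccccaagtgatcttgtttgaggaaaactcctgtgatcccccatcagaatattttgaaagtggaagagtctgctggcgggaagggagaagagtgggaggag
LINC01191: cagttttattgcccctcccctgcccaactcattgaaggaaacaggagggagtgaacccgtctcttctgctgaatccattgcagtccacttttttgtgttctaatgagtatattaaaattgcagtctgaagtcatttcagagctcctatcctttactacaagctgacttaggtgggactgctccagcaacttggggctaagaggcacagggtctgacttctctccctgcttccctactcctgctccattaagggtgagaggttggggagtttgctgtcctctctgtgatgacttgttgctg
LINC02802: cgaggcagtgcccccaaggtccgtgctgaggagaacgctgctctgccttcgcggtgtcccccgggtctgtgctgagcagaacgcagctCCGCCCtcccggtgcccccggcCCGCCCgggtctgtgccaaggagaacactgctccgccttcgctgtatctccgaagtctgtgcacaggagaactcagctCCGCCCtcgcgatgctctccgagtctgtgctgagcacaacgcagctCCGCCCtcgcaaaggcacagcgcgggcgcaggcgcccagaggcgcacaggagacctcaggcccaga
LINC02560: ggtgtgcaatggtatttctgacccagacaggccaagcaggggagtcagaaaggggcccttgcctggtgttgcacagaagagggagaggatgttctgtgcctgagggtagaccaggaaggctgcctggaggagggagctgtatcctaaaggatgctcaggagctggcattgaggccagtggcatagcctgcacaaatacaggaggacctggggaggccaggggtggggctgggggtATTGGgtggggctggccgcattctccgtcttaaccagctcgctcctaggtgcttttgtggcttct
They lie at chr1:87129515-87129814 (plus strand), chr2:113969072-113969371 (plus), chr1:144250248-144250547 (minus) and chr19:58399953-58400252 (plus) in that order. LINC02802 holds GGGCGG on the other strand at 4 places and 27 CG dinucleotides, and LINC02560 holds CCAAT on the other strand and 3 CG. In LINC01140 and LINC01191 none of these letters was found, with 2 and 1 CG. For LINC01191 the RefSeq start lies upstream of the GENCODE 29 gene span, which begins at 113979569.

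Over the 69 promoters of LINC RNAs 52.2% held CCAAT, where 34.6% of all 35116 promoters in the table did. TGACTCA was in 10.1% against 4.95%, GGGCGG in 46.4% against 45.0%, a GATA form in 17.4% against 16.3% and TATAAA in 5.80% against 11.5%. The median number of CG was 12 against 14. Split by the call at 0 h against the library without 4sU, TGACTCA was in 3 of the 19 promoters of members higher at 0 h than without 4sU, in 3 of the 17 of members lower, and in 1 of the 33 of the rest. CCAAT was in 6 of 19, 10 of 17 and 20 of 33. These are counts of letters in a window, with no test.

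The machinery that acts on such transcripts was itself measured. Of 28 genes for the nuclear exosome, its adaptors and its partners, 12 lost label faster than the median gene (background 30.5%) and 11 more slowly (background 32.6%), with a median half-life of 3.75 h. The scarcest of the 28, ZC3H3, was at 7.30 CPM. Among all genes at 5 CPM or more, 33.4% were faster and 38.2% slower. Within the nuclear exosome targeting complex, which hands short noncoding transcripts to the exosome, ZCCHC8 (2.26 h, 1.88 to 2.84) and RBM7 (2.21 h, 1.87 to 2.71) were faster and the helicase gene MTREX (5.88 h, 5.12 to 6.91) was slower. From 0 to 12 h total RNA rose for 14 of the 28 genes (background 27%) and fell for 8 (background 29.1%), by edgeR's quasi-likelihood test. Among all genes at 5 CPM or more, 37.1% rose and 34.8% fell, which is the closer background for this list. RBM7 had the largest fall, 1.65 on the log2 scale (adjusted p = 1.9e-11), and ZC3H18 the largest rise, 1.87. MTREX rose by 0.51. For loss of label, 6 of 17 genes for 3' end formation were faster (background 30.5%, and 33.4% at 5 CPM or more). Slower were 10 of the 17 (background 32.6%, and 38.2% at 5 CPM or more). Of 14 Integrator subunits 3 were faster and 4 slower.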

How the data were processed

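Members and lists were chosen with earlier results of these data known. The authors deposited tables of raw counts per gene for all reads, for the reads they call nascent (labelled counts here) and for Drosophila. Tools in the submitters' processing notes are Trim Galore 0.6.5, bcl2fastq 2.17.1.14 and bedtools, and builds hg38 and dm6. The sources used here do not give the aligner, annotation, use of strand or the conversions that make a read labelled, so genes that overlap or share sequence are uncertain. Symbols came from a table of gene names (55381 IDs) or GENCODE 29 (457), and 3366 IDs had none. Libraries were grouped by title.

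Loss of label was fitted with edgeR 4.0.16 (R 4.3.3; quasi-likelihood, two-sided, false discovery rate 0.05) over the 12 chase libraries, offset by TMM-scaled total library size, for genes with at least 1 CPM and 30 labelled counts. Half-lives came from a quasi-Poisson exponential (Python 3.11.15, scipy 1.17.1), with an upper bound over 48 h not read. Total RNA was fitted as 7 groups with filterByExpr. Copies were sought with BLAST 2.17.0. On simulated data with 200 genes changed, the slope test recovered 99.5% of changes of 0.3 log2 per h over 13067 genes. The 12 h against 0 h test recovered 74.5% of 2-fold changes over 16255 genes. In both, the changed genes left out those of lowest level and all genes had the same fixed spread. These rates therefore need not hold for scarce LINC RNAs or for smaller changes. Half-life intervals are widened by the spread of the libraries around the fit. The exact intervals of ratios and the floors of the library without 4sU cover counting error only. Sequences are from GENCODE 29 and RefSeq (GRCh38.p14).

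Named were the 8 most abundant members, the 6 shortest and 6 longest half-lives, the 4 largest rises and falls per contrast among those that passed, the 3 highest and lowest shares at 0 h (20 counts or more) and those next to the threshold. Alternatives were DESeq2 1.42.0, other size factors, spike-in sizes, own total as offset, other filters and windows, the replicate block, the spike-in side and each library left out.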

Additional observations from a re-analysis of the deposited data

How the results depend on the processing

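Fitting the spike-in side gave 11 faster and 5 slower members, and the own total 27 slower. Slower members numbered 7 with the filter of 5 CPM and 100 labelled counts, where fewer members entered, and 2 in the window from 0 to 4 h. Leaving out 1 library gave 21 to 25 faster and 12 to 14 slower. At 12 h against 0 h 49 rose and 16 fell with spike-in totals, 12 rose with the side, and leaving out 1 library gave 19 to 25 rises and 20 to 24 falls. At 1 h leaving out 1 library gave 0 to 1 falls. Against no 4sU 18 fell with spike-in totals and 16 with the side, and leaving out a 0 h library gave 31 to 34 rises and 27 to 28 falls. The median half-life was 3.54 h with the own total, 4.35 h with spike-in totals and 3.36 h from 2 to 12 h. The median share at 0 h of the members tested was 61.5%, 59.8% for those with 100 counts, and 60.0 to 60.6% with 1 library left out. The cause of these moves was not tested.

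Slopes against the median reversed with the own total for LINC01287 (0.11), LINC01001 (-0.027) and LINC01667 (0.020), in the window 0 to 4 h for LINC01667 (0.051), from 2 to 12 h for LINC01391 (0.0085), and with the side for LINC01001 (-0.010) and LINC01004 (0.11). With replicate number as a block, 24 members were faster and 14 slower, and 28 rose and 26 fell at 12 h. Of 15 correlations of replicate differences between times, 2 were over 0.1 and the highest was 0.36. They cannot tell whether equal numbers mark a shared culture or day. Depth limits the precision, since 81 of the 116 members reached 100 labelled counts over the chase.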

Other observations

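LINC00324 could not enter the test of label loss, with 28 labelled counts over the chase. Its labelled counts were 10 and 4 of 21 and 15 before the chase, 2 and 2 of 57 and 34 after 1 h, 7 and 2 of 115 and 84 after 2 h, and 0 in both libraries of 4 h. Its total RNA went from 2.09 and 1.67 CPM at 0 h to 8.03 and 6.21 CPM at 2 h and 5.91 and 6.08 CPM at 12 h, with a log2 change of 1.51 from 0 to 12 h (SE 0.30, adjusted p = 1.2e-04 by edgeR's quasi-likelihood test), and it was at 2.01 CPM without 4sU. The rise held when the spike-in side was fitted (adjusted p = 4.9e-04), with the side estimated from the pair of 4 h libraries alone. It was chosen after its values were seen.

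LINC01923 gave 0 labelled of 161 counts over the chase. At 0 h 0 of 23 counts were labelled, which allows a share of up to 13.04%, and it had 1 count without 4sU (ratio 21.0 at 0 h, exact 95% counting interval 3.41 to 866). The remaining 5 members left out, LINC02983, LINC00896, LINC02481, LINC02109 and LINC02972, were labelled in 13.3 to 33.3% of 15 to 27 counts at 0 h.

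The half-life of LINC00467, chosen after its values were seen, depended on the reference. Its labelled share was 55.7 and 63.9% at the start, 51.7 and 54.2% after 4 h and 21.0 and 23.0% after 12 h, with a half-life of 4.22 h (3.61 to 5.09) against library size and 9.88 h against its own total. Its slope differed from the median with the own total (0.16, adjusted p = 6.6e-09) and not with library size (adjusted p = 0.76). LINC01140, whose total RNA also fell, had 75.0 and 79.7% labelled at 0 h and 4 of 10 and 4 of 8 counts labelled at 12 h.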
